A study of Mus musculus with 12 samples.

Results

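The levels of 10 nuclear genes that encode chaperones and proteases of the mitochondrion were measured by RNA sequencing in AML12 cells, an immortalised line of mouse hepatocytes. The genes were taken by symbol from the table of 24824 genes: the 4 chaperone genes Hspd1, Hspe1, Hspa9 and Trap1, and the 6 protease genes Lonp1, Clpp, Clpx, Yme1l1, Afg3l2 and Htra2. All 10 were listed, and all 10 were among the 10615 genes tested, those with a mean of at least 1 FPKM (fragments counted per unit of transcript length and of library size) over the 12 libraries. Wild-type (WT) cells were kept for 24 h under 4 conditions with 3 libraries each. Group A was left in standard growth medium, and no vehicle is named for it. Group B received CuCl2 at 300 μM with the copper ionophore elesclomol (ES) at 40 nM, together Cu/ES. Group C received the same Cu/ES with taurocholic acid (TCA), a conjugated bile acid, at 1000 μM, and group D received TCA alone at 1000 μM. All libraries came from 1 cell line, and nothing in the labels says whether the 3 libraries of a group were separate cultures, so the p-values measure only the spread between these libraries.

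Mitochondrial proteins are mostly made in the cytosol and imported unfolded. Hspa9 (mortalin) pulls them through the inner membrane and helps them fold in the matrix, Hspd1 (Hsp60) encloses them in a folding chamber, Hspe1 (Hsp10) is the lid of that chamber, and Trap1 is the mitochondrial member of the Hsp90 family. Proteins that fail to fold are degraded in the matrix by Lonp1 and by the Clpp protease, which is fed by the unfoldase Clpx. Yme1l1 and Afg3l2 are ATP-driven proteases anchored in the inner membrane, with active sites facing the intermembrane space and the matrix respectively, and Htra2 is a serine protease of the intermembrane space. Several of these genes are known targets of the heat shock factor or of the mitochondrial unfolded protein response, and copper loading through an ionophore is known to stress mitochondrial proteins that carry lipoyl groups or iron-sulfur clusters.

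Hspe1 and Hspd1 lie head to head on mouse chromosome 1. The stretch around their starts is shown because these neighbours are known to share a promoter and because their levels went apart in the results that follow. The window of Hspe1 is given from 250 bases before to 50 bases after its RefSeq start (RefSeq sequence on build GRCm38.p6, chr1:55087898-55088197, plus strand). The deposited values were made on build GRCm39, so these coordinates belong to the reference and not to the deposited table. Capitals mark alternating TTC and GAA units spaced by 2 bases, the letters of a heat shock element.
Hspe1: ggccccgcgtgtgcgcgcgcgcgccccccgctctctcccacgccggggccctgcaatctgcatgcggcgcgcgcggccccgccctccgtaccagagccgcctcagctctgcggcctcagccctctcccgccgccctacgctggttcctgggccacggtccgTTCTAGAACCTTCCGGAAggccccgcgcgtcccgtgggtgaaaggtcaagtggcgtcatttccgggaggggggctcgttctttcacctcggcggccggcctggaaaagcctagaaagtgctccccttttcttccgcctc
The same letters read on the other strand lie before the second of the 2 Hspd1 starts in RefSeq (chr1:55088039-55088096, minus strand).
Hspd1: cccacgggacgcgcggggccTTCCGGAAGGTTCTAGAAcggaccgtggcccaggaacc
The window of Clpp is the other one among these genes with such letters, a single pair of units after its start (chr17:56990277-56990313, plus strand).
Clpp: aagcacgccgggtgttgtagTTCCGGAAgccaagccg

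The capitals in the Hspe1 window span 18 bases and hold 4 units, from 89 to 72 bases before the Hspe1 start. From the second Hspd1 start they lie 144 to 127 bases upstream, and these 2 starts are 216 bases apart, so that 285 bases are common to both windows. The first Hspd1 start lies 95 bases beyond the Hspe1 start, so from it the capitals lie downstream on the Hspd1 strand. The window of that start shares 4 bases with the Hspe1 window. A run of 4 units, a length chosen after the letters had been seen, was found in 8 of 32851 RefSeq windows (0.0244%), Hspe1 and Hspd1 included. Runs of 3 units were in 0.603% of windows and pairs of units in 15.1%, searched on both strands, and each longer run also counts among the shorter ones. In Clpp the pair lies 33 to 40 bases after the start. Windows were matched for 7 of the 10 genes, 8 windows in all, and none was used for Hspa9, Afg3l2 and Htra2. Trap1, Lonp1, Clpx, Yme1l1 and the first Hspd1 window held no pair of units. The C/EBP-ATF letters (TGATG, any base, AA; 3.97% of all windows) were in none of the 8 windows, and the antioxidant letters (TGAC, any 3 bases, GC; 12.4%) occurred at 2 places in the Lonp1 window. A match is a description of letters only.

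The libraries held 29115011 to 39782142 reads, worked out from the steps between low FPKM values, with 30773752 to 32002324 in B and group A at 38298857 to 39108519. Each gene of the set was covered by 416 to 57992 reads in a library. Reads were concentrated in fewer genes under Cu/ES: the 50 most-read genes took 24.9 to 25.8% of reads with Cu/ES alone and 22.7 to 25.2% with Cu/ES and TCA, against 11.5 to 11.9% in group A and 11.2 to 11.6% in group D. FPKM is a share of a library. The median gene stood 1.10 lower on the log2 scale in B than in A and 1.13 lower in C than in D. A scaling that sets the median near zero (median-ratio scaling) moves every Cu/ES effect up by about this amount. RNA per cell was not measured, and fewer transcripts per cell cannot be told apart from more of other transcripts. The cells are labelled as hepatocytes, but of the hepatocyte markers Alb and Hnf4a were below 1 FPKM in every library, while Krt8 and Krt18 made up most of a summed 598 to 651 FPKM in A, 243 to 295 in B, 191 to 228 in C and 701 to 721 in D. Apoe of the same list went the other way, with 1.73, 7.96, 20.5 and 3.54 FPKM in A to D on average (1.72 in B vs. A and 2.24 in C vs. D), and Apoa1 was at 0.00863, 1.86, 1.11 and 0. Of other cell types, endothelial markers summed to 0.922 to 1.16 FPKM in A, 6.79 to 10.5 in B, 16.5 to 19.7 in C and 0.865 to 1.25 in D (2 of 4 below 1 FPKM throughout), macrophage markers to 5.86 to 6.90, 1.43 to 2.69, 1.38 to 2.16 and 6.70 to 8.15 (3 of 4), fibroblast markers to 12.1 to 26.7, 1.01 to 2.50, 0.496 to 1.16 and 6.45 to 18.1 (2 of 4), and cholangiocyte markers to 230 to 326, 111 to 140, 130 to 136 and 158 to 246 (2 of 4). The cholangiocyte sum was mostly Krt19, at 268 FPKM in A and 77.3 in B, while Sox9 rose from 10.6 to 50.9 (2.19 in B vs. A, adjusted p = 1.51e-09 by limma, and 2.49 in C vs. D). The endothelial sum in B and C was mostly Pecam1, at 0.214, 6.85, 16.1 and 0.134 FPKM in A to D. Cdh5 differed by 0.15 in B vs. A (adjusted p = 0.349 by limma) and by 0.50 in C vs. D (adjusted p = 0.00481). Cd14 made up most of the macrophage sum, at 6.22, 1.78, 1.23 and 7.36 FPKM. Col1a1 made up most of the fibroblast sum, at 15.9, 1.55, 0.578 and 9.62 FPKM. The part of other cell types in the results was not tested.

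In untreated cells the chaperones were the more abundant group. Hspa9 was the highest of the 10 at 292 FPKM ± 20.8 (SD, n = 3), the 163rd most abundant gene in group A, followed by Hspd1 at 209 ± 7.39, Lonp1 at 188 ± 29.3 and Hspe1 at 112 ± 4.98. Trap1 (43.4 ± 1.35), Yme1l1 (43.0 ± 1.68), Clpp (38.7 ± 1.51), Afg3l2 (28.8 ± 4.52), Htra2 (25.3 ± 0.968) and Clpx (15.3 ± 1.22 FPKM) followed. In this order Hspd1 and Lonp1, Trap1 and Yme1l1, and Afg3l2 and Htra2 overlapped between libraries, and the other neighbours did not. Under Cu/ES the order changed: Hspe1 moved from the fourth place to the first in groups B and C, ahead of Hspa9 and Hspd1, and Trap1 moved from the fifth place to the seventh in B and the eighth in C. Clpx was the lowest in every group. The summed FPKM of the 4 chaperones was 656 ± 31.6 in A, 1392 ± 21.9 in B, 1351 ± 136 in C and 750 ± 51.2 in D, while that of the 6 proteases was 339 ± 34.7 in A against 165 to 172 in each library of B and C. The proteases thereby made up 34.0% of the summed level of the set in A, 10.9% in B, 11.1% in C and 31.1% in D, and Hspe1 alone 11.3%, 43.5%, 40.8% and 11.5%.

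**Figure D1:**
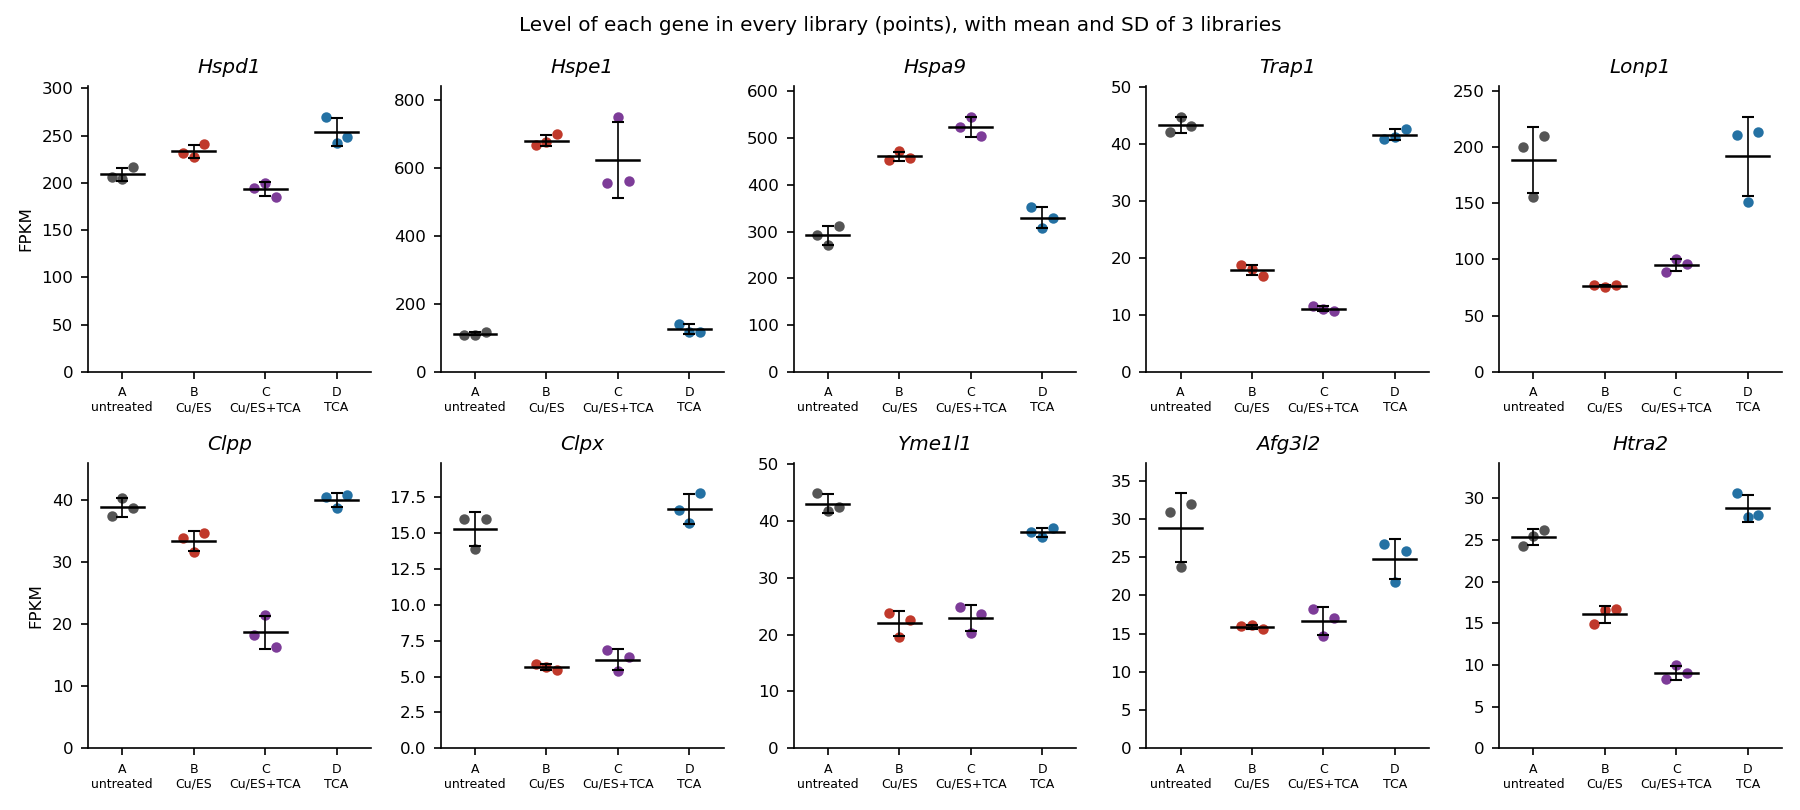
FPKM of each of the 10 genes (vertical axis, from 0, one scale per gene) in groups A to D (horizontal axis); points are libraries and bars the mean and SD of 3 libraries. Hspe1 stood at 555 to 750 FPKM in the 6 libraries with Cu/ES and at 109 to 142 in the 6 without, and Trap1 and Htra2 stepped down from A to B and again from B to C.

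The first question was what Cu/ES did to these genes. It was asked in 2 comparisons that share no library, B vs. A without TCA and C vs. D with TCA. In B vs. A, 3 of the 10 passed the test as higher (Hspe1, Hspa9, Hspd1) and 7 as lower (limma on log2(FPKM + 1), Benjamini-Hochberg adjusted p under 0.05), where 20.1% of all genes tested passed as higher and 72.0% as lower. The 10 genes did not overlap between the groups in either comparison, as was the case for 92.9% of all genes in B vs. A and 92.0% in C vs. D. Past the second threshold as well, a change of more than 1 on the log2 scale, were Hspe1 upward (10.1% of all genes) and Trap1, Lonp1 and Clpx downward (53.0%). In C vs. D, 2 passed as higher (Hspe1 and Hspa9; 20.9% of all genes) and 8 as lower (71.5%), with Hspe1 up (11.2%) and Trap1, Clpp, Clpx and Htra2 down (53.3%) past both thresholds. Counts of this kind depend on the scaling: with median-ratio scaling 7 genes passed as higher and 0 as lower in B vs. A, among 42.8% and 45.0% of all genes, and 5 and 2 in C vs. D, among 42.0% and 46.8%.

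Among the chaperones, Hspe1 changed most. The libraries of group A held it at 109, 109 and 118 FPKM, and those of group B at 666, 674 and 699. With TCA the levels were 142, 117 and 117 FPKM in D and 555, 750 and 562 in C. Every library with Cu/ES lay far above every library without it. The rise was 2.59 on the log2 scale of FPKM + 1 (SE 0.11, adjusted p = 1.19e-11 by limma), 6.05-fold by mean FPKM, in B vs. A, and 2.30 (SE 0.11, adjusted p = 3.83e-11), 4.97-fold, in C vs. D. It was 3.69 and 3.42 above the median gene, higher than 98.3% and 97.2% of genes tested, and remained past both thresholds under all 4 scalings tried (1.89 to 3.87).

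Hspd1, which encodes the folding chamber that the Hspe1 protein closes, did not follow. Its level was 206, 204 and 217 FPKM in untreated libraries and 232, 227 and 241 after Cu/ES alone. In group D it was 270, 242 and 248 FPKM, and in group C 195, 200 and 185. Cu/ES thus went with a slightly higher level without TCA and a lower one with TCA, and neither pair of groups overlapped. The difference was 0.16 (SE 0.06, adjusted p = 0.0229 by limma) in B vs. A, where it no longer passed without A1, A2 or B3 (adjusted p = 0.0647, 0.0693 and 0.0819), and -0.39 (SE 0.06, adjusted p = 2.70e-05) in C vs. D. Scaling set the sign in both, with B vs. A at -0.21 by TPM, -0.33 by quantile normalization and 1.44 by median-ratio scaling, and C vs. D at 0.86 by median-ratio scaling.

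A ratio of both genes within 1 library does not change when the library is multiplied by 1 factor, as with TPM or median-ratio scaling, but can change with quantile normalization, which moves genes unequally. Hspe1 stood at 0.532, 0.537 and 0.543 of the Hspd1 level in group A and at 2.87, 2.97 and 2.90 times that level in group B. In group D the ratio was 0.526, 0.481 and 0.472, and in group C 2.85, 3.76 and 3.04. The lid gene thus passed from the lower to the higher of the pair in all 6 libraries with Cu/ES, a shift of 2.44 on the log2 scale (5.42-fold) in B vs. A and 2.70 (6.48-fold) in C vs. D, or 2.39 and 2.70 with quantile normalization. These 2 genes also share 112 exon bases on opposite strands in GENCODE vM21, 4.24% of those of Hspd1 and 7.60% of those of Hspe1, and whether the counting used strand is not stated in the sources used here. The annotation further holds 5 pseudogenes named for Hspd1, 6 for Hspe1 and 1 for Hspa9, none of them in the deposited table, so reads that these copies share make the 3 levels uncertain.

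Hspa9, the import motor, rose in both comparisons. It stood at 293, 271 and 312 FPKM in group A against 454, 472 and 458 in group B. In group D it stood at 353, 307 and 329 FPKM against 523, 546 and 504 in group C. The rises were alike at 0.66 (SE 0.07, adjusted p = 3.69e-07 by limma) and 0.67 (SE 0.07, adjusted p = 3.05e-07), or 1.58-fold and 1.59-fold by mean FPKM. Quantile normalization reduced them to 0.01 and 0.06, neither of which passed, while median-ratio scaling raised them to 1.94 and 1.93. Within libraries, Hspa9 moved from 1.40 times the Hspd1 level in A to 1.98 in B, and from 1.30 in D to 2.71 in C, and the groups did not overlap.

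Trap1, the mitochondrial Hsp90, went the other way. Its level was 42.1, 44.8 and 43.2 FPKM in group A against 18.7, 18.1 and 16.9 in group B. In group D it was 40.9, 41.2 and 42.7 FPKM against 11.5, 11.1 and 10.6 in group C. The fall was -1.23 (SE 0.06, adjusted p = 9.33e-11 by limma) in B vs. A, close to that of the median gene (-0.13 from it, and 0.01 with median-ratio scaling). In C vs. D it was -1.82 (SE 0.06, adjusted p = 1.60e-12), -0.69 from the median gene, and it still passed as lower with median-ratio scaling (-0.62). Quantile normalization put Trap1 at -0.71 in B vs. A and -1.10 in C vs. D, below the median gene at -0.10 and -0.12. The ratio of Trap1 to Hspa9 within a library was 0.149 in A, 0.0389 in B, 0.0212 in C and 0.127 in D on average, with no overlap between any of the groups compared. Its shifts of -1.94 in B vs. A and -2.58 in C vs. D were -0.72 and -1.17 with quantile normalization. In GENCODE 2.10% of the Trap1 exon bases lie opposite Dnase1, which was at 0 FPKM in groups A, C and D and at 0.0242 in B.

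**Figure D2:**
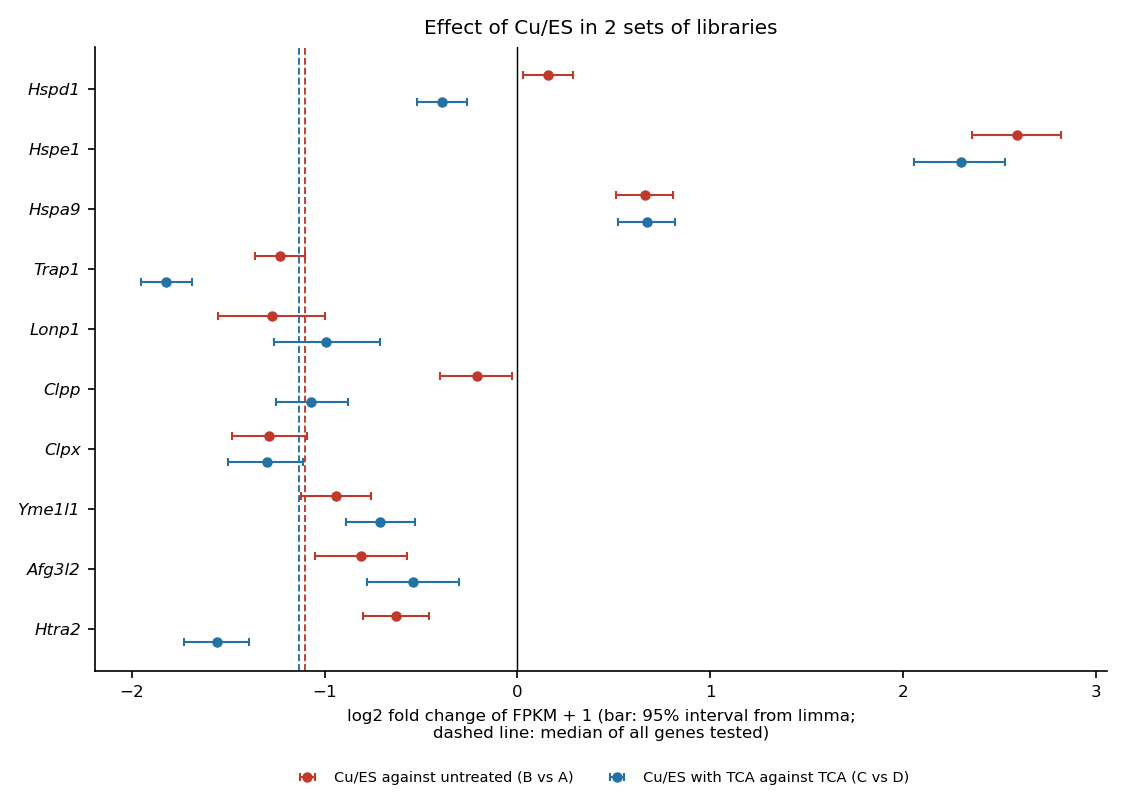
Log2 fold change of FPKM + 1 (horizontal axis) for Cu/ES in each gene, without TCA (B vs. A, red) and with TCA (C vs. D, blue); bars are 95% intervals from limma, and dashed lines the median of all genes tested, at -1.10 and -1.13. Hspe1 lies at 2.59 and 2.30, and Lonp1 and Clpx lie beside the median gene in both comparisons. With quantile normalization, not drawn here, Lonp1 lay well below the median gene in both.

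All 6 protease genes passed as lower in both comparisons, with a median change of -0.87 in B vs. A and -1.03 in C vs. D against -1.10 and -1.13 over all genes tested. Lonp1, the ATP-driven matrix protease, stood at 200, 155 and 210 FPKM in untreated libraries and at 77.0, 75.8 and 77.2 with Cu/ES alone. In group D it stood at 211, 151 and 213 FPKM, and in group C at 89.0, 100 and 96.0. The second library was the low one in both A and D, and all 6 libraries with Cu/ES were below all 6 without. The falls were -1.27 (SE 0.13, adjusted p = 2.44e-07 by limma), or 2.46-fold, and -0.99 (SE 0.13, adjusted p = 3.91e-06), or 2.02-fold, which median-ratio scaling turned into 0.00 and 0.26. Quantile normalization instead kept Lonp1 past both thresholds as lower in both comparisons. It put Lonp1 at -1.47 in B vs. A. The median gene then stood at -0.10 in B vs. A and -0.12 in C vs. D, so Lonp1 lay well below it in both.

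Clpx, the unfoldase that feeds Clpp, fell alike with and without TCA. The 3 untreated libraries held 16.0, 13.9 and 16.0 FPKM, and those of group B 5.85, 5.67 and 5.48. It was at 16.6, 15.7 and 17.8 FPKM in group D and at 6.86, 5.37 and 6.34 in group C. The changes were -1.29 and -1.30 (SE 0.09 for each, adjusted p = 3.73e-09 and 3.12e-09 by limma), both 2.70-fold by mean FPKM, and -0.13 and -0.16 with median-ratio scaling, neither of which passed. In B vs. A the call was also lost with quantile normalization (-0.13, adjusted p = 0.151 by limma). Its group B values rest on 487 to 535 reads a library.

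Clpp, the peptidase itself, moved by very different amounts in the 2 comparisons. Untreated libraries held 37.3, 40.3 and 38.6 FPKM, and Cu/ES libraries of group B 33.8, 31.5 and 34.6. With TCA, group D held 40.4, 38.6 and 40.7 FPKM and group C 18.2, 21.5 and 16.3. Without TCA the levels of treated and untreated libraries nearly met, and with TCA they were far apart. The changes were -0.21 (SE 0.09, adjusted p = 0.0296 by limma) and -1.07 (SE 0.09, adjusted p = 1.75e-08). The first no longer passed without A2, A3 or B2 (adjusted p = 0.0886, 0.0592 and 0.102) and turned to 1.04 with median-ratio scaling and 0.21 with quantile normalization, and the second became 0.15 with median-ratio scaling.

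The partners Clpx and Clpp therefore did not keep their ratio. Clpx stood at 0.396 of the Clpp level in A, 0.171 in B, 0.339 in C and 0.418 in D, and Lonp1 at 4.88, 2.31, 5.15 and 4.79 times that level. Group B was below every other group in both ratios. The Clpx ratio of C and D differed by -0.33 on the log2 scale without overlap, but overlapped when 1 was added to each FPKM (-0.24), and that of Lonp1 overlapped in C and D. With quantile normalization the Clpx ratio differed by -0.34 in B vs. A, against -1.21, and turned to 0.26 in C vs. D, and the Lonp1 ratio differed by -1.67 in B vs. A, against -1.07, and by -0.69 in C vs. D, against 0.11.

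The falls of the inner membrane proteases Yme1l1 and Afg3l2 were smaller than that of the median gene, by 0.16 and 0.41 for Yme1l1 and 0.29 and 0.58 for Afg3l2 in B vs. A and C vs. D, though the 95% interval of Yme1l1 in B vs. A (-1.12 to -0.76) reached it. With quantile normalization this did not hold in B vs. A, where the median gene stood at -0.10, Yme1l1 at -0.46 and Afg3l2 at -0.10. In C vs. D it did not hold for Yme1l1, at -0.13 beside -0.12 for the median gene, while Afg3l2 stood at 0.23. Yme1l1 stood at 44.9, 41.8 and 42.4 FPKM in untreated cells, compared with 23.8, 19.6 and 22.6 under Cu/ES (B). In group D it stood at 38.1, 37.2 and 38.8 FPKM and in group C at 24.8, 20.3 and 23.6. Its falls were -0.94 (SE 0.08, adjusted p = 5.97e-08 by limma) and -0.71 (SE 0.08, adjusted p = 1.34e-06). Afg3l2, a subunit of the protease facing the matrix, stood at 30.9, 23.7 and 32.0 FPKM in untreated cells, compared with 16.0, 16.1 and 15.6 under Cu/ES (B). With TCA it was at 26.7, 21.8 and 25.8 FPKM in D and at 18.2, 14.7 and 17.1 in C. Again the second library was low in both A and D, as for Lonp1, and no library with Cu/ES reached those without. The falls of Afg3l2 were -0.81 (SE 0.11, adjusted p = 8.24e-06 by limma) and -0.54 (SE 0.11, adjusted p = 3.73e-04). With median-ratio scaling both genes turned upward, to 0.31 and 0.51 for Yme1l1 and 0.42 and 0.66 for Afg3l2. Quantile normalization ended the calls of Afg3l2 in B vs. A (-0.10, adjusted p = 0.441 by limma) and of Yme1l1 in C vs. D (-0.13, adjusted p = 0.0995), and turned Afg3l2 in C vs. D to 0.23 (adjusted p = 0.107). Their ratio was 1.52, 1.38, 1.37 and 1.55 in A to D, and A and B overlapped.

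Htra2, the serine protease of the intermembrane space, stood at 24.3, 25.4 and 26.2 FPKM in untreated cells, compared with 14.9, 16.6 and 16.7 under Cu/ES (B). In group D it stood at 30.6, 27.7 and 28.0 FPKM and in group C at 8.28, 9.96 and 9.01. The step with TCA was the larger one, and group C was the lowest of the 4. The falls were -0.63 (SE 0.08, adjusted p = 2.55e-06 by limma) and -1.56 (SE 0.08, adjusted p = 8.24e-11). The first turned to 0.60 with median-ratio scaling and to 0.11 with quantile normalization (adjusted p = 0.209 by limma), and median-ratio scaling left the second at -0.38. On the opposite strand, exons of Aup1 and Loxl3 cover 43.7% of the Htra2 exon bases in GENCODE, so without strand the reads of these genes cannot be told apart there. Aup1 was at 62.2 ± 5.44, 30.1 ± 0.986, 25.5 ± 2.18 and 69.9 ± 3.61 FPKM in A to D, and Loxl3 at 8.79 ± 1.75, 1.08 ± 0.365, 0.613 ± 0.251 and 7.90 ± 1.40.

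**Figure D3:**
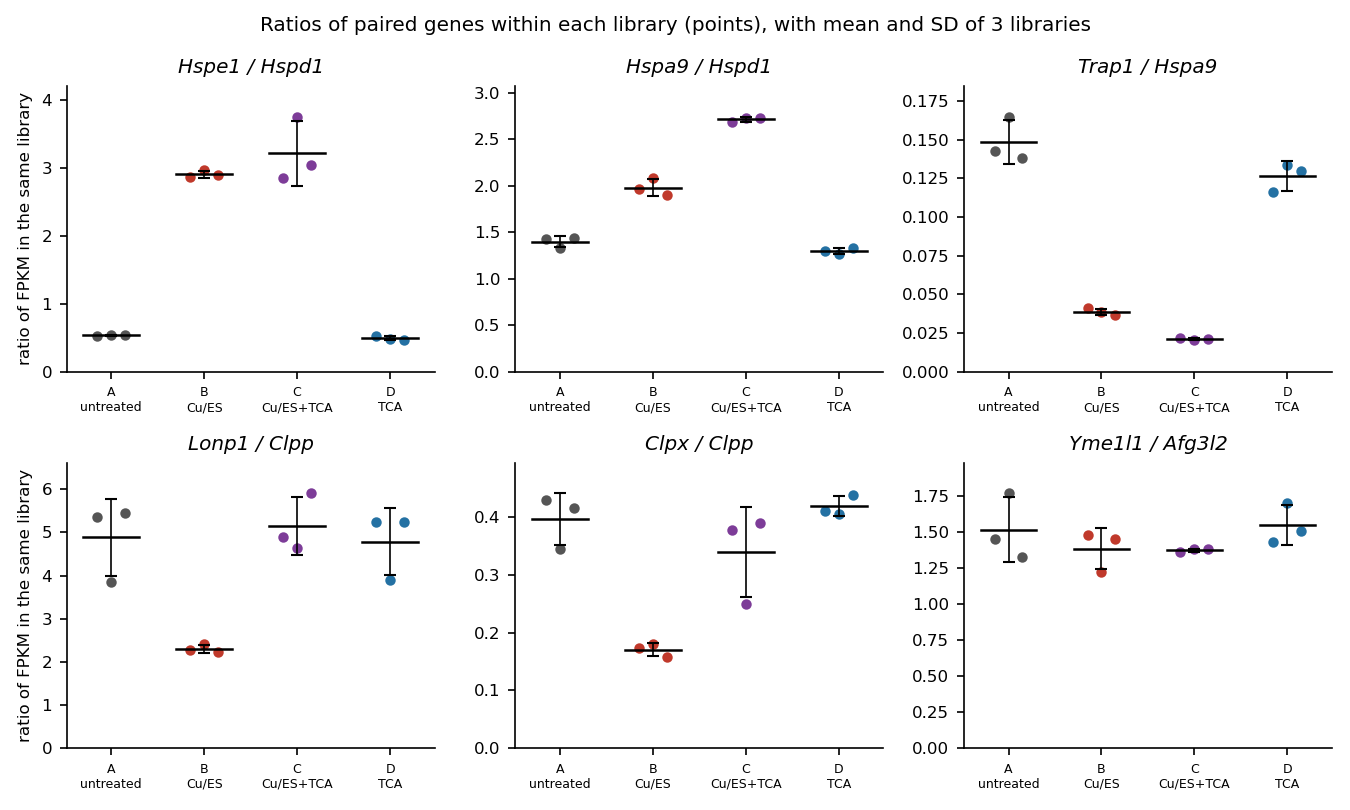
Ratio of the FPKM of 2 genes in the same library (vertical axis, from 0, one scale per pair) in groups A to D; points are libraries and bars the mean and SD of 3 libraries. Hspe1 over Hspd1 is 0.472 to 0.543 without Cu/ES and 2.85 to 3.76 with it, and Lonp1 and Clpx over Clpp are lowest in group B.

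The 6 ratios were compared in 4 ways, 24 comparisons in all. Groups did not overlap in 5 of 6 ratios in B vs. A, 5 in C vs. D, 4 in C vs. B and 3 in D vs. A. For single genes, 92.9%, 92.0%, 49.2% and 44.2% of all genes tested did not overlap in the same comparisons. The share for other pairs of genes was not worked out. With 3 libraries against 3 a two-sided exact permutation test cannot go below p = 0.1, which is 0.141 after Benjamini-Hochberg adjustment over the 24, so none of these could pass a threshold of 0.05.

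The second question was what TCA added, in Cu/ES-treated cells (C vs. B) and in untreated cells (D vs. A). These comparisons share no library either, so the difference between them was tested as an interaction. By construction this interaction is also the difference between the Cu/ES effects in C vs. D and B vs. A. For a given gene both views are therefore the same result, not separate support. In C vs. B, 1 gene passed as higher (Hspa9; 20.4% of all genes) and 4 as lower (Trap1, Clpp, Htra2 and Hspd1; 23.6%). None of the 10 passed both thresholds, where 1.13% and 1.16% of all genes did. Without overlap were 6 of the 10, against 49.2% of all genes. In D vs. A only Hspd1 passed, as higher (10.5% of all genes, with 11.5% lower), and not past both thresholds (0.0659% and 0.151%). In that comparison 3 of the 10 did not overlap against 44.2% of all genes. The median gene moved by -0.03 and -0.01. The calls of Trap1, Clpp, Htra2 and Hspd1 passed under each scaling tried, whereas in C vs. B that of Hspa9 was lost with median-ratio scaling (adjusted p = 0.0837 by limma).

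Clpp, Htra2 and Trap1 stepped down when TCA was added to Cu/ES. The change from B to C was -0.81 (SE 0.09, adjusted p = 8.82e-06 by limma) for Clpp, -0.76 (SE 0.08, adjusted p = 7.45e-06) for Htra2 and -0.65 (SE 0.06, adjusted p = 4.42e-06) for Trap1, equal to 1.79-fold, 1.77-fold and 1.62-fold lower mean FPKM. They lay among the lower 2.69%, 3.50% and 5.35% of genes tested. TCA alone gave 0.04, 0.18 and -0.06 for the same genes (adjusted p = 0.778, 0.123 and 0.560). Between cells with and without Cu/ES, the TCA effect differed by -0.85 for Clpp (SE 0.12, adjusted p = 1.87e-04 by limma), -0.94 for Htra2 (SE 0.11, adjusted p = 6.43e-05) and -0.59 for Trap1 (SE 0.09, adjusted p = 2.58e-04).

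Hspd1 was the gene that passed in both TCA comparisons, in opposite directions. It was 0.28 higher in D than in A (SE 0.06, adjusted p = 0.00619 by limma) and 0.27 lower in C than in B (-0.27, SE 0.06, adjusted p = 0.00265), a difference of -0.55 (SE 0.09, adjusted p = 3.67e-04). As a result group D had the highest Hspd1 level of the 4 and group C the lowest, with 242 to 270 and 185 to 200 FPKM. The interaction passed in 4 of the 10 genes, all toward a lower level with both agents, where 17.7% of all genes passed as higher and 19.8% as lower. None of the 4 exceeded 1 on the log2 scale, where 1.75% and 1.73% of all genes did.

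The other 6 genes gave no interaction that passed. Hspe1 differed by -0.14 in C vs. B (95% interval -0.37 to 0.09, adjusted p = 0.316 by limma), and by -0.28 (adjusted p = 0.0104) without C2, its highest library at 750 FPKM. The interaction of Hspe1 was likewise -0.29 (adjusted p = 0.146) with C2 and -0.43 (adjusted p = 0.00564) without it. Hspa9 was 0.18 higher in C than in B (SE 0.07, adjusted p = 0.0438), a call that was lost without any 1 library of B or C, without A1 or D3, and under the replicate block (adjusted p = 0.0538). It was 0.17 higher in D than in A (adjusted p = 0.0856), or 0.23 without D2 (adjusted p = 0.0490), and its interaction was 0.01 (95% interval -0.20 to 0.22).

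Lonp1 stood 0.30 higher in C than in B (SE 0.13, 95% interval 0.03 to 0.58), with no overlap of the libraries. It did not pass in the fit of all libraries (adjusted p = 0.0700 by limma) and did pass under the replicate block (adjusted p = 0.0414), with only the groups compared (0.00822), with TPM scaling (0.0202) and without A2 (0.0392) or D2 (0.0210), the low libraries of their groups. Clpx, Yme1l1 and Afg3l2 differed by 0.10, 0.06 and 0.06 in C vs. B, with 95% intervals of -0.09 to 0.30, -0.12 to 0.24 and -0.18 to 0.30. In D vs. A they differed by 0.12, -0.17 and -0.21, with intervals of -0.07 to 0.31, -0.35 to 0.01 and -0.45 to 0.04. Without A2 the change of Afg3l2 was -0.34 in D vs. A (adjusted p = 0.0341) and its interaction 0.40 (adjusted p = 0.0355), where all libraries gave 0.27 (adjusted p = 0.206). Yme1l1 passed with an interaction of 0.31 without C2 (adjusted p = 0.0263) and with all libraries did not pass (0.23, adjusted p = 0.144) except with quantile normalization (0.32, adjusted p = 0.0256). Its change in D vs. A passed with quantile normalization (-0.28, adjusted p = 0.0146 by limma) and with only the groups compared (-0.17, adjusted p = 0.0311).

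**Figure D4:**
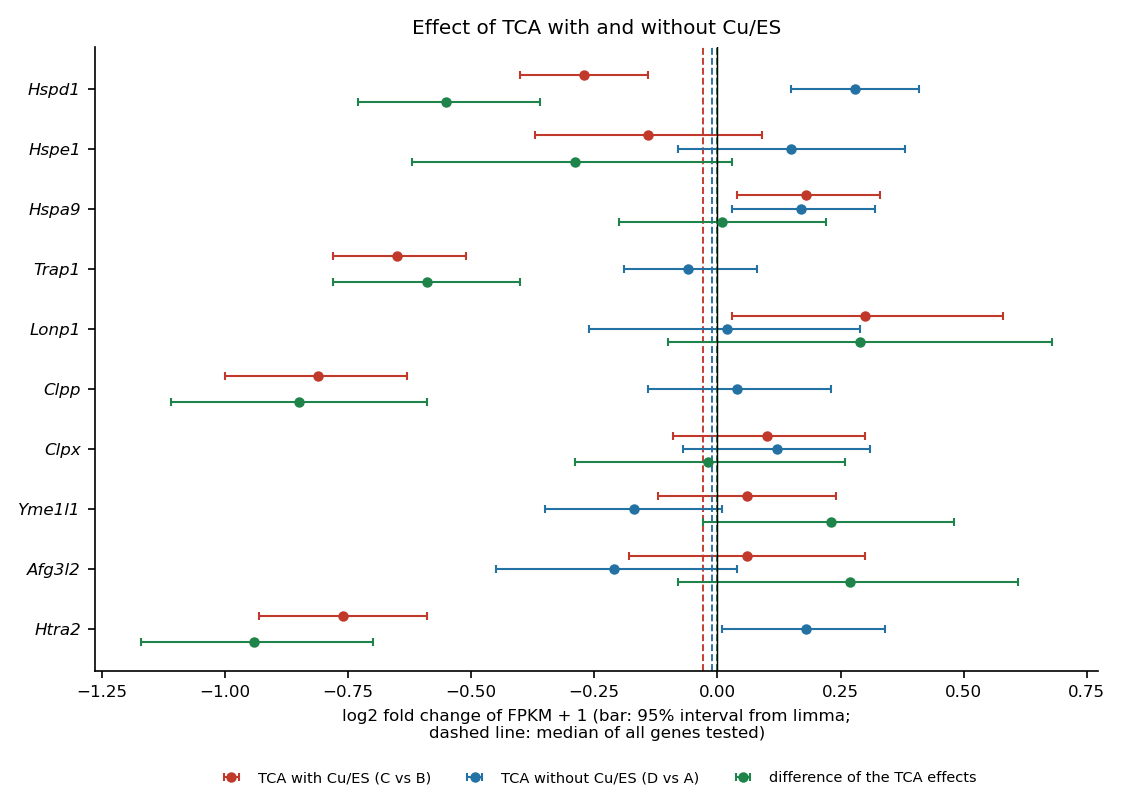
Log2 fold change of FPKM + 1 (horizontal axis) for TCA in each gene, with Cu/ES (C vs. B, red) and without (D vs. A, blue), and the difference of both (green); bars are 95% intervals from limma, and dashed lines the median of all genes tested. Clpp, Htra2 and Trap1 lie at -0.81, -0.76 and -0.65 with Cu/ES and at 0.04, 0.18 and -0.06 without, and Hspd1 lies on opposite sides of zero.

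The machinery around these genes was described with 4 lists of 58 tested genes: chaperone partners, other mitochondrial proteases and scaffolds, protein import, and stress regulators. In B vs. A, 8 of the 58 passed as higher and 45 as lower with a median of -0.88, and in C vs. D 7 and 48 with a median of -1.29, against -1.10 and -1.13 over all genes, of which 20.1% and 72.0% passed as higher and lower in B vs. A and 20.9% and 71.5% in C vs. D. In C vs. B 9 passed as higher and 28 as lower (median -0.22; all genes 20.4% and 23.6%), and in D vs. A 12 and 1 (median 0.08; all genes 10.5% and 11.5%). The interaction passed as higher in 2 and lower in 30 (median -0.34), against 17.7% and 19.8% of all genes. By list, 1 of 8 chaperone partners passed as higher and 7 as lower in B vs. A, 1 and 12 of 16 other proteases, 3 and 23 of 27 import genes, and 3 and 3 of 7 stress regulators. For the interaction the import genes stood at 1 higher and 17 lower of 27, and the other proteases at 0 and 7 of 16.

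The chaperone partner that rose was Grpel1, the nucleotide exchange factor that resets Hspa9, named here after its values were seen. It was at 15.9 ± 0.229 FPKM in A and 32.0 ± 2.43 in B (0.96, adjusted p = 6.53e-09 by limma), and at 17.8 ± 0.658 in D and 37.9 ± 2.23 in C (1.05, adjusted p = 2.20e-09). Tomm20, a receptor of the outer membrane import gate, rose by 1.09 in C vs. D (adjusted p = 1.34e-09 by limma). Its rise in B vs. A was 0.98 (adjusted p = 4.95e-09), just under the second threshold. The largest falls of these lists past both thresholds were those of Timm22, the channel for carrier proteins, from 10.9 ± 1.27 FPKM in A to 0.447 ± 0.0747 in B (-3.04, adjusted p = 5.75e-13), and of Atf5, a transcription factor of the mitochondrial unfolded protein response, from 51.2 ± 7.65 to 4.38 ± 0.661 FPKM (-3.28, adjusted p = 1.35e-12). In C vs. D these were -3.22 (adjusted p = 2.69e-13 by limma) for Timm22 and -3.97 (adjusted p = 2.16e-13) for Atf5. Without Cu/ES, Atf5 went up with TCA, to 130 ± 9.66 FPKM in D (1.33, adjusted p = 1.23e-05). For the interaction, Timm44, which ties Hspa9 to the inner membrane gate, stood at 1.06 (adjusted p = 6.78e-05 by limma) and Timm50, a receptor of the same gate, at -1.04 (adjusted p = 1.51e-04).

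Relatives of the chaperones outside the mitochondrion were tested in a list of 9. In B vs. A 8 of them passed as higher and 0 as lower, with a median of 1.05, against 20.1% and 72.0% of all genes, and in C vs. D 8 and 0, against 20.9% and 71.5%. Hspa1b, an inducible cytosolic Hsp70, went from 0.492, 1.21 and 0.746 FPKM in A to 7327, 8946 and 7252 in B, a level that is uncertain because Hspa1a is a near-identical copy. The constitutive Hspa8 went from 823 ± 76.1 to 8741 ± 371 FPKM (3.41, adjusted p = 7.56e-13 by limma) and the cytosolic Hsp90 gene Hsp90aa1 from 156 ± 2.78 to 1782 ± 108 (3.51, adjusted p = 3.63e-14). Hsp90ab1, the more abundant cytosolic Hsp90 gene, rose less, from 1855 ± 29.9 to 2902 ± 66.4 FPKM (0.64, adjusted p = 1.19e-07 by limma). Beside these, the mitochondrial relatives of the same families were at 0.66 for Hspa9 and -1.23 for Trap1. For the chamber type, Cct2 and Tcp1 of the cytosolic chaperonin differed by 0.88 and 0.23 (adjusted p = 2.03e-09 and 0.00191), and Hspd1 by 0.16. Hspa5 and Hsp90b1, the relatives in the endoplasmic reticulum, differed by 1.05 (adjusted p = 7.03e-08) and -0.14 (adjusted p = 0.0529).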

How the data were processed

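PolyA RNA of AML12 cells was sequenced in 12 libraries. The authors deposited FPKM values for 24824 genes, and the submitters' processing notes name fastp, HISAT2 and HTSeq and build GRCm39, without versions. Groups were taken from the labels. The 10615 genes averaging 1 FPKM or more were tested on log2(FPKM + 1) with limma 3.58.1 in R 4.3.3, in one fit of all 12 libraries with 8 residual degrees of freedom, a trend in the variance and Benjamini-Hochberg adjustment over all genes tested. The authors used DESeq2 on counts. Limma-voom, a model for counts, was run here only as an alternative, on reads recovered from the spacing of FPKM values. These were whole, within 0.02, for all 22212 genes above 0 in at least 2 libraries. Calls were an adjusted p under 0.05 and, as a second threshold, an absolute log2 fold change over 1. Ratios within libraries were compared with two-sided exact permutation tests (SciPy 1.17.1). The main fit was tried on simulated data for B vs. A only, with a small share of genes changed, equally up and down. That simulation held no shift of the median gene, unlike these data, so it cannot speak to the scaling.

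The 10 genes and all lists were chosen with earlier results of these data known. From the 4 lists of related genes, the text names per comparison the 2 largest rises and the 2 largest falls past both thresholds, and any of the counterparts outside mitochondria. Ttr and Serpina1a of the hepatocyte markers were not analysed here, nor were protein sequences. Same-numbered libraries of A and B deviated together (correlations of deviations from the group means over genes 0.14 to 0.17 in 3 of 3 pairs), those of the other comparisons less regularly (C and D -0.17 to 0.11, B and C 0.01 to 0.28, A and D 0.09 to 0.58). The labels give no source for a pairing. Alternatives were another pseudocount, filter, scaling or variance model, a replicate block, only the groups compared, and leaving out each library.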

Additional observations from a re-analysis of the deposited data

Results flagged for a closer look

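In 4 genes the effect of TCA with Cu/ES differed from its effect without, by limma's interaction term with Benjamini-Hochberg adjustment: Hspd1 by -0.55 (adjusted p = 3.67e-04), Trap1 by -0.59 (adjusted p = 2.58e-04), Clpp by -0.85 (adjusted p = 1.87e-04) and Htra2 by -0.94 (adjusted p = 6.43e-05), each with 3 libraries a group. All 3 libraries of group C lay below all 3 of group B in each of the 4 genes, values that the interaction uses as well. Groups B and C did not overlap, in either direction, in 49.2% of all genes tested. The interaction passed as higher in 17.7% and as lower in 19.8% of all genes tested. With no group of 4 or more libraries, single libraries were not tested as outliers.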

How the results depend on the processing

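Of the values of single genes in the 5 contrasts, 451 kept direction and side of the threshold under the alternatives to scaling, filter and model, 13 no longer passed, 6 passed newly and 20 changed sign, and 564, 14, 8 and 14 did so when a library was left out. Scaling moved the Cu/ES counts. In B vs. A median-ratio scaling gave 7 higher and 0 lower and quantile normalization 4 lower, and in C vs. D median-ratio scaling gave 5 higher and 2 lower and quantile normalization 1 higher. In B vs. A Hspd1 turned to -0.21 with TPM scaling and -0.33 with quantile normalization, Trap1, Lonp1, Clpp, Yme1l1, Afg3l2 and Htra2 to 0.01, 0.00, 1.04, 0.31, 0.42 and 0.60 with median-ratio scaling, and Clpp and Htra2 to 0.21 and 0.11 with quantile normalization. In C vs. D Hspd1, Lonp1, Clpp, Yme1l1 and Afg3l2 turned to 0.86, 0.26, 0.15, 0.51 and 0.66 with median-ratio scaling, and Afg3l2 to 0.23 with quantile normalization. By construction, median-ratio scaling multiplies all genes of a library by 1 factor.

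In C vs. B the count of higher genes was 0 with no filter, median-ratio scaling or no trend and 2 with TPM scaling, and 0 to 2 with a library left out. In D vs. A 1 was lower with quantile normalization or only the groups compared, with 1 to 2 higher and 0 to 1 lower when a library was left out, and 1 interaction was higher with quantile normalization and 0 to 1 with a library left out. In D vs. A Lonp1 was -0.03 and Clpp -0.02 with quantile normalization, and the interaction was -0.02 for Hspa9 with median-ratio scaling and 0.06 for Clpx with TPM scaling. Leaving out a library turned values near zero: Yme1l1 in C vs. B ranged from -0.02 to 0.14 and Afg3l2 from 0.00 to 0.14, Lonp1 in D vs. A from -0.11 to 0.18, and the interactions of Hspa9 and Clpx from -0.04 to 0.06 and -0.08 to 0.07. None of these passed. The Trap1 to Hspa9 ratio in C vs. D was -2.49 with 1 added to each FPKM against -2.58. With quantile normalization, a setting chosen for the ratios after seeing the data, Hspe1 to Hspd1 was 2.39 in B vs. A, Hspa9 to Hspd1 0.34, 0.87 and 0.41 in B vs. A, C vs. D and C vs. B, Trap1 to Hspa9 -0.72, -1.17 and -0.73, Lonp1 to Clpp -1.67, -0.69 and 0.97, Clpx to Clpp -0.34 and 0.26 in B vs. A and C vs. D, and Yme1l1 to Afg3l2 -0.35, -0.36 and 0.01. Except as given for median-ratio scaling, the causes were not tested.

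With the replicate block, Hspa9 in C vs. B lost its call (0.18, adjusted p = 0.0538 by limma) and Lonp1 gained one (0.30, adjusted p = 0.0414). The block changed no other call of these genes. The lowest coverage was 416 reads, for Htra2 in a library of group C.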

Other observations

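Among all genes tested, those whose levels relative to their own mean were most like these 10 over the 12 libraries, by root mean square difference on the log2 scale, were Emc4 for Hspd1 (0.06), Psmb3, a proteasome subunit, for Hspe1 (0.06), Prnp for Hspa9 (0.06), Emb for Trap1 (0.07), Osbp for Lonp1 (0.10), Capns1 for Clpp (0.07), Ogdh, a subunit of a lipoylated matrix enzyme complex, for Clpx (0.05), Dusp11 for Yme1l1 (0.06), Stxbp5 for Afg3l2 (0.09) and Sdhb, the iron-sulfur subunit of respiratory complex II, for Htra2 (0.08). Ndufs5, of complex I, was second for Htra2 (0.09). Within the 10, Yme1l1 and Afg3l2 were the closest pair (0.14) and Lonp1 and Clpx the next (0.18). The gene nearest to Hspe1 within the 10 was Hspa9 at 0.90, while Hspd1 was nearest to Clpp at 0.34. These are descriptions over shared libraries, with no test.

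Beyond Hspe1 (2.59) and Hspd1 (0.16), 6 other genes hold a run of 4 heat shock units in their RefSeq windows, and 4 of them were tested in B vs. A, with values from -2.94 for Fam149a and -1.80 for Kctd18 to -0.14 for Arpc2 and 1.94 for Chordc1, a cofactor of Hsp90. The 49 tested genes with 3 units or more, Hspe1 and Hspd1 included, had a median of -0.93 against -1.10 over all genes tested. Of these 49, 8 rose past both thresholds, Hspe1 among them, against 10.1% of all genes tested. These genes were looked at after their letters were known, and no test was made.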
